A study of Mus musculus with 5 samples.

Results

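The genes followed here encode subunits of respiratory complex III, complex IV (cytochrome c oxidase) and ATP synthase, together with cytochrome c, in sorted mouse islet cells. Members were all genes with a probe set of 1 symbol that starts with Uqcr, Cox4i, Cox5, Cox6, Cox7, Cox8 or Atp5, leaving out Atp5s and Atp5sl, plus Cyc1 and Cycs. This rule, which used no measured difference, gave 44 of the 19938 genes measured: 9 of complex III, 1 for cytochrome c, 17 of complex IV and 17 of ATP synthase. For the 13 members with more than 1 probe set, the probe set with the highest mean signal stood for the gene. Cox7c was not analysed here, since its probe sets carry several symbols.

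Each of 5 arrays was hybridised with RNA from 1 pool of islet cells that flow cytometry had sorted by Flattop status. There were 3 Flattop-positive pools and 2 Flattop-negative pools. Every pool came from 4 to 6 untreated C57BL/6 mice aged 8 to 12 weeks and heterozygous for Flattop, written FVR/+ in the labels, so both fractions carried the same allele. The sex of the mice had not been determined, and the labels name islet cells rather than β-cells. RNA was prepared by miRNeasy Micro extraction with DNase digestion, amplified with the Ovation PicoSL WTA System V2, made for very small amounts of RNA, and labelled with the Encore Biotin Module.

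Complex III passes electrons from ubiquinol to cytochrome c, a small soluble protein that carries them to complex IV, where oxygen is reduced to water. Both complexes move protons out of the mitochondrial matrix, and ATP synthase lets them return through a rotating ring while it makes ATP. In β-cells, ATP made from glucose closes potassium channels at the cell surface, which opens calcium channels and releases insulin. The catalytic centres of complex IV, cytochrome b of complex III and the proton channel subunit of ATP synthase are encoded by mitochondrial DNA and are not among the members.

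Values are log2 signals per gene. A difference is the mean of the Flattop-positive arrays minus the mean of the Flattop-negative arrays, with its standard error (SE) from limma, a linear model over all genes. A gene is named as called when it differed at least 1.5-fold and had p under 0.05 before adjustment, and no gene passed limma's test after adjustment over all 19938 genes (0%, smallest adjusted p = 0.198). At p under 0.05 before adjustment alone there were 2760 genes, 25 of them members. The p-values measure only the spread between these pools, which may be partly technical, and 3 against 2 arrays cannot give a two-sided exact p below 0.2. Array medians lay between 4.74 and 4.98. The floor, taken as the 95th percentile of 1027 olfactory receptor genes, was 4.29 to 4.45 on the Flattop-positive arrays and 4.75 and 4.86 on the Flattop-negative arrays. Cfap126, the gene for Flattop, had log2 signals of 6.07, 6.07 and 6.24 in the Flattop-positive arrays, against 5.52 and 5.44 in the Flattop-negative arrays, without overlap, and its difference of 0.64 ± 0.18 (SE) did not pass the adjusted test (adjusted p = 0.274). The islet hormone genes Ins2, Iapp and Gcg stood at 12.37 or more on all 5 arrays, whereas Sst and Ppy were at 8.08 and 8.98 on Flattop-negative replicate 1 and at no less than 12.32 and 12.44 elsewhere.

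Most subunits of complex III and ATP synthase were called higher in the Flattop-positive arrays. In complex IV 11 of 17 lay higher, and few were called. Of the 44 members, 22 were called higher and 0 lower, where 8.08% of all genes were called higher and 3.74% lower. Brighter genes were called higher more often: of the 3890 genes with a mean log2 signal of at least 7, a limit chosen after the data had been seen, 23% were called higher, against 22 of the 38 members that bright. The share called higher was 8 of 9 in complex III, 3 of 17 in complex IV and 11 of 17 in ATP synthase, and Cycs was not called. Of the 11 members of complex IV of at least 7, 3 were called, 27.3%, close to the 23% of all genes that bright. The median difference was 0.94 in complex III, 0.28 in complex IV and 1.33 in ATP synthase, beside -0.10 over all genes and 0.40 over genes of at least 7. For the 11 members of complex IV of at least 7 it was 0.77, and every member of the other 2 complexes was that bright. The complex IV median over all 17 was -0.07 after cyclic loess normalisation, while the other 2 stayed above 0 under every scaling tried. In bulk samples such as these pools, fewer cells of a type and less RNA per cell cannot be told apart.

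**Figure D1:**
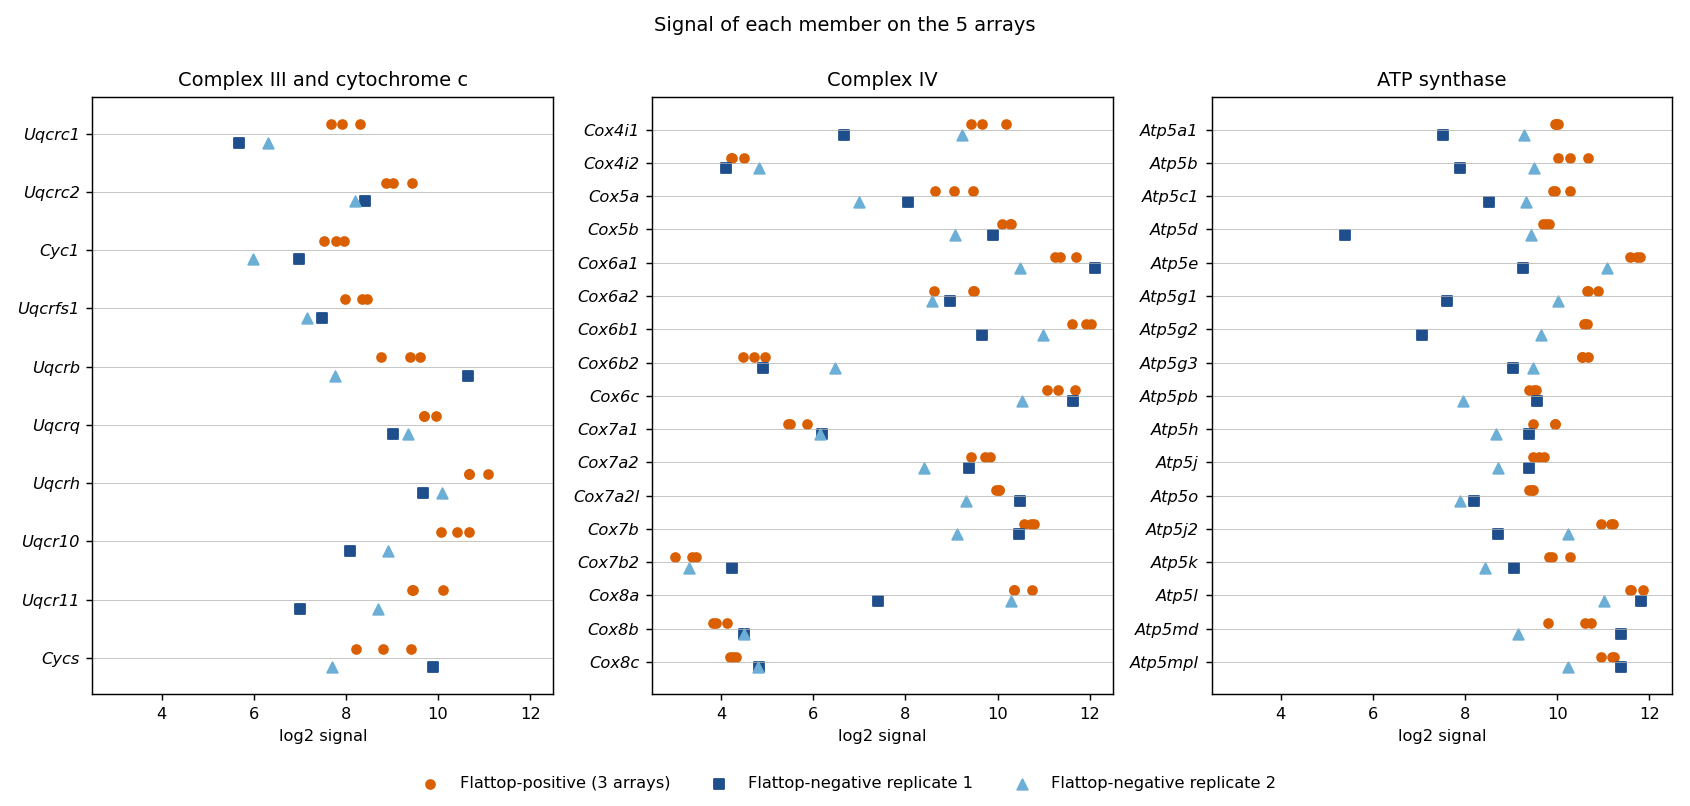
Log2 signal (horizontal axes) of each of the 44 members on each array, by complex; orange circles are the 3 Flattop-positive arrays, dark squares Flattop-negative replicate 1 and light triangles Flattop-negative replicate 2. The light triangle lies left of every orange circle for all 38 members with a mean signal of at least 7, while the dark square lies far to the left for some genes (Atp5d at 5.40) and right of the circles for others (Uqcrb at 10.64).

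The groups did not overlap for 28 members that lay higher in the Flattop-positive arrays and for 3 that lay lower. Over all genes 13.7% lay higher without overlap and 21% lower, and among genes of at least 7 the share higher was 33.2%. All 38 members of at least 7 had a difference above 0, with a median of 1.03, although 31 did so after repeated quantile normalisation and 29 after cyclic loess. Of all genes that bright, 75.1% lay above 0 as deposited, 55.1% after quantile normalisation and 47.3% after loess. The other 6 members, with a mean signal under 7, all had a difference below 0 (median -0.55), and all 6 are isoforms of complex IV best known from muscle, lung or testis. Dim genes lay below 0 more often in general: 11802 of all 19938 genes did so, against 967 of the 3890 genes of at least 7. The direction of these 6 is therefore not particular to them.

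Sequences upstream of these genes were compared because so many members lay on the same side. In vertebrates the factors NRF1, GABPA, the ERR family and YY1 are known activators of respiratory genes. Windows from 250 bases before to 50 bases after the gene start were taken from RefSeq on GRCm38.p6 and were held for 33 of the 44 members. On either strand, the letters CGCATGCG (NRF1, a palindrome) stood in 8 of 33 members, 24.2%, beside 2.07% of the 27025 genes with a window. The letters CCGGAAG (GABPA and other ETS factors) stood in 11 of 33, 33.3%, beside 9.93% of all genes. AAGGTCA (ERR family) stood in 4 members, 12.1% beside 5.38%, and AAGATGG (YY1) in 3, 9.09% beside 7.28%. The letters did not part called members from the rest: NRF1 letters stood in 4 of 18 called and 4 of 15 uncalled members, and ETS letters in 6 of 18 and 5 of 15. Atp5j, Atp5k, Atp5l, Cox6a1 and Uqcr11 held both, as did 0.426% of all genes. A match is a description of letters and not a bound site. Shares among genes as bright as the members were not computed, so the contrast cannot be called particular to respiratory genes.

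The windows of 2 called members (Uqcr11 and Atp5k) and 2 uncalled ones (Cox6a1 and Cycs) are shown, since they hold the same NRF1 letters while their differences are unlike. All 4 are on the minus strand and read 5′ to 3′ toward the gene, with Uqcr11 at chr10:80406772-80407071, Atp5k at chr5:108434350-108434649, Cox6a1 at chr5:115348909-115349208 and Cycs at chr6:50566520-50566819. Capitals mark the NRF1 letters and, in Uqcr11, Atp5k and Cox6a1, the ETS letters or their reverse complement CTTCCGG; in Atp5k they also mark the ERR letters.
Uqcr11: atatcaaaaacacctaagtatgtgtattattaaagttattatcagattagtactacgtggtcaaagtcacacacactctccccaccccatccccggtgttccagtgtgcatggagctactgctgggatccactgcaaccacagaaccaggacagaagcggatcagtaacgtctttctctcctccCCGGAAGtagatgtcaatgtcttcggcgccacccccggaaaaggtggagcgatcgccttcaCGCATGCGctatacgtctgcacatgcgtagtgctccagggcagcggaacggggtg
Atp5k: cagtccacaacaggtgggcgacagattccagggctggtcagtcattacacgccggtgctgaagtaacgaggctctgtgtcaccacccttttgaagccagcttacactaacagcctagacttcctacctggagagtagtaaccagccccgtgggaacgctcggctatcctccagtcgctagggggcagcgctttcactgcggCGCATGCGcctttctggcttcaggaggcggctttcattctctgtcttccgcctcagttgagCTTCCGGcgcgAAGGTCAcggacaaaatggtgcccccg
Cox6a1: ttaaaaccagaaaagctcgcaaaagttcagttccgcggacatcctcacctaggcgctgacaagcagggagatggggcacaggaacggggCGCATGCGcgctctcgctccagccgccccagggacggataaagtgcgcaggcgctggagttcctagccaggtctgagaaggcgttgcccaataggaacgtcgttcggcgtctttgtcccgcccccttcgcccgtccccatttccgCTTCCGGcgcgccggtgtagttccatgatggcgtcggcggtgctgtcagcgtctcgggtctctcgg
Cycs: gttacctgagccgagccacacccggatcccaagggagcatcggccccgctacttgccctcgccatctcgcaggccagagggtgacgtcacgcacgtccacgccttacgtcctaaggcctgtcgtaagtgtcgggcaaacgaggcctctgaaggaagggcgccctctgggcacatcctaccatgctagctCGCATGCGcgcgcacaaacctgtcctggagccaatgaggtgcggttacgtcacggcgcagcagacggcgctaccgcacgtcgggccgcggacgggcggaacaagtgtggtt

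Nearly all of complex III lay higher in the Flattop-positive arrays. Its 2 large core proteins, its 2 nuclear-encoded electron carriers and 4 of its 5 small supernumerary subunits were called higher, and only Uqcrb was not. The 8 called members differed from 1.51-fold to 3.90-fold. After cyclic loess 3 members were called and after repeated quantile normalisation 5, with medians of 0.48 and 0.61. Under these scalings 3.84% and 4.54% of all genes were called higher. The share among genes of at least 7, as all members of complex III are, was not computed under them.

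The core protein gene Uqcrc1 had log2 signals of 7.91, 8.30 and 7.67 in the Flattop-positive arrays, against 5.67 and 6.32 in the Flattop-negative arrays. No Flattop-negative array came within 1 log2 unit of a Flattop-positive one, and the difference was 1.97 ± 0.30 (SE), 3.90-fold (adjusted p = 0.198). Its partner core protein Uqcrc2 stood at 9.02, 8.88 and 9.43 in the Flattop-positive arrays, against 8.41 and 8.20 in the Flattop-negative arrays, a smaller gap of 0.81 ± 0.24 (SE, adjusted p = 0.284) that was also without overlap. Cyc1 encodes cytochrome c1, the haem protein that hands electrons to cytochrome c. It had log2 signals of 7.96, 7.52 and 7.80 in the Flattop-positive arrays, against 6.98 and 5.99 in the Flattop-negative arrays. Both Flattop-negative arrays were lower, the second of them by more, so that the difference of 1.27 ± 0.35 (SE, adjusted p = 0.262) became 0.78 without Flattop-negative replicate 2. Uqcrfs1, the Rieske iron-sulphur protein that takes electrons from ubiquinol, stood at 8.35, 7.98 and 8.46 in the Flattop-positive arrays, against 7.47 and 7.17 in the Flattop-negative arrays. Here both Flattop-negative arrays lay close together and below all Flattop-positive ones, with a difference of 0.94 ± 0.24 (SE, adjusted p = 0.250).

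The small supernumerary subunits surround the core and differed widely among themselves. Uqcr10 had log2 signals of 10.68, 10.41 and 10.05 in the Flattop-positive arrays, against 8.09 and 8.91 in the Flattop-negative arrays, a difference of 1.89 ± 0.33 (SE) or 3.69-fold (adjusted p = 0.199). Uqcr11 stood at 10.11, 9.45 and 9.45 in the Flattop-positive arrays, against 7.01 and 8.69 in the Flattop-negative arrays. Its groups did not overlap, but Flattop-negative replicate 1 was far the lowest, and the difference of 1.82 ± 0.53 (SE) was 0.98 without that array. Uqcrh, the acidic hinge subunit between cytochrome c1 and cytochrome c, had a difference of 0.93 ± 0.24 (SE), and Uqcrq one of 0.60 ± 0.21 (SE), both without overlap. After quantile normalisation these were 0.54 and 0.21, and after loess 0.46 and 0.11, all under 1.5-fold. Uqcrb, known as the ubiquinone-binding subunit, stood at 9.38, 8.77 and 9.61 in the Flattop-positive arrays, against 10.64 and 7.77 in the Flattop-negative arrays. One Flattop-negative array was above and the other below all 3 Flattop-positive arrays. The difference of 0.05 ± 0.84 (SE) had an interval from -2.05 to 2.15 (95%, adjusted p = 0.983), and leaving out Flattop-negative replicate 1 made it 1.49, leaving out replicate 2 -1.39.

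Cycs, the gene for cytochrome c, showed the same split. Its log2 signals were 8.81, 8.21 and 9.41 in the Flattop-positive arrays, against 9.88 and 7.69 in the Flattop-negative arrays. Flattop-negative replicate 1 was the highest of the 5 arrays and replicate 2 the lowest. The difference was 0.02 ± 0.71 (SE) with an interval from -1.75 to 1.79 (95%, adjusted p = 0.991). It became 1.12 or -1.08 when Flattop-negative replicate 1 or 2 was left out, and turned below 0 after quantile normalisation (-0.46) and cyclic loess (-0.47).

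**Figure D2:**
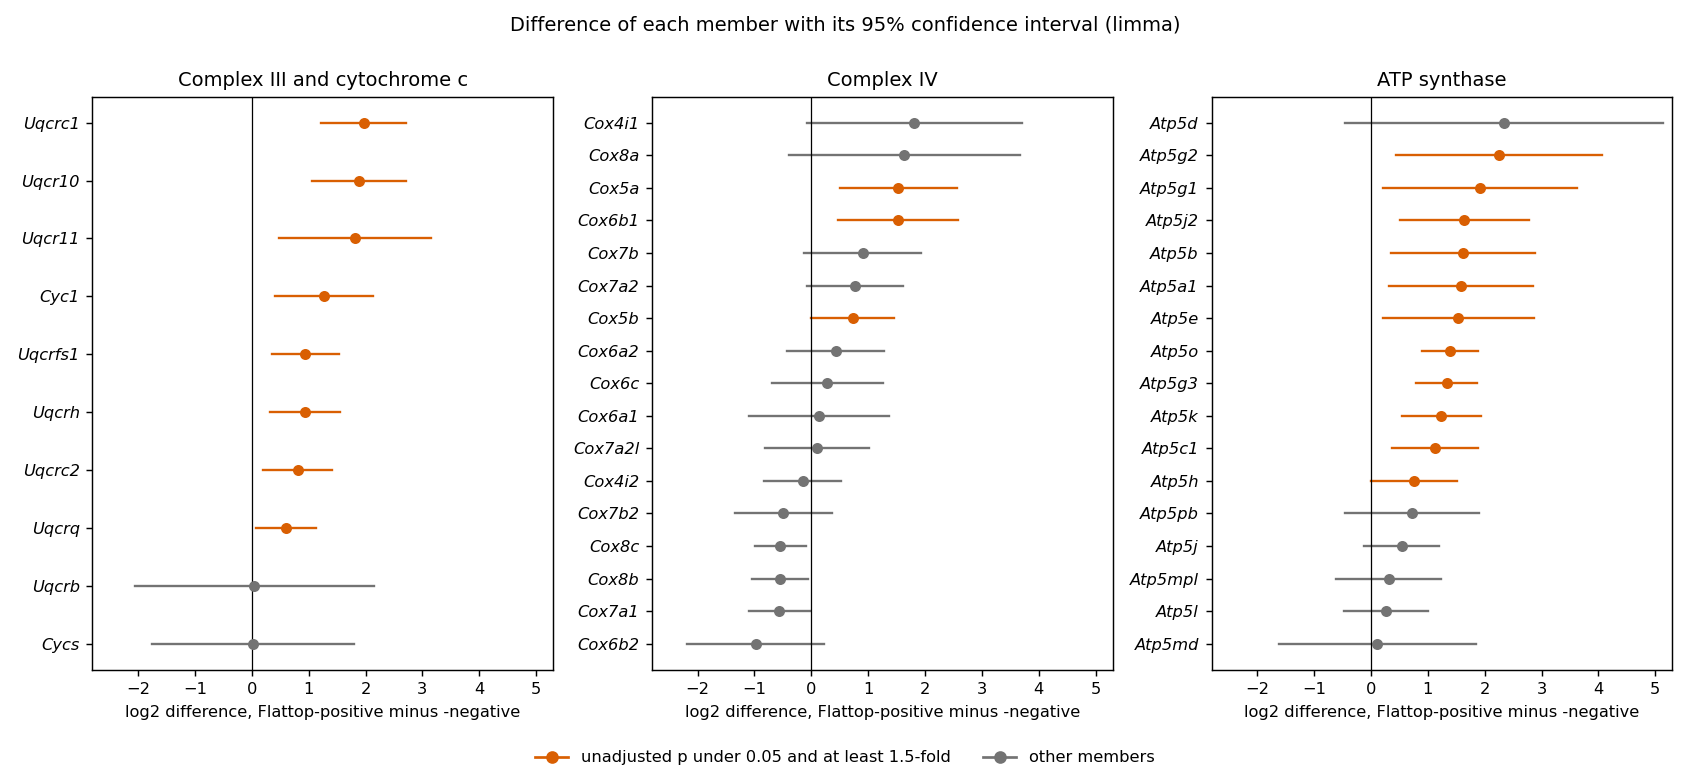
Difference in log2 signal, Flattop-positive minus Flattop-negative (horizontal axes), for each member, sorted within its complex; points are limma estimates over 3 and 2 arrays, bars are 95% confidence intervals, and orange marks the 22 called members. Intervals are short for Atp5o and Atp5g3 and wide for Atp5d, Uqcrb and Cycs, and 11 orange members are of ATP synthase, 8 of complex III and 3 of complex IV.

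Within complex IV the broadly expressed subunits and the isoforms known from few tissues differed in signal level as well as in direction. Its 10 broadly expressed subunits had differences from 0.11 to 1.81 with a median of 0.83, 7 of them without overlap and 3 called higher. All 10 had a mean signal of at least 7, and of all genes that bright 33.2% lay higher without overlap and 23% were called higher. The median of the 10 was 0.35 both after cyclic loess and after repeated quantile normalisation. Its 7 isoforms known from few tissues had a median of -0.54, and 0 of them were called. Of these 7, 4 were below the floor on 4 or 5 arrays, where the floor itself was higher in the Flattop-negative arrays, and Cox6a2, the only one of at least 7, lay at 0.43 ± 0.34 (SE). Without Flattop-negative replicate 1 the median over all 17 was 0.62. It was 0.20 without Flattop-negative replicate 2.

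Cox5a, a regulatory subunit on the matrix side that binds a thyroid hormone metabolite, had log2 signals of 9.46, 9.05 and 8.64 in the Flattop-positive arrays, against 8.06 and 6.98 in the Flattop-negative arrays. All 3 Flattop-positive arrays were higher, with a difference of 1.53 ± 0.41 (SE) or 2.89-fold (adjusted p = 0.259) that was 0.99 without Flattop-negative replicate 2. Cox6b1, on the face toward cytochrome c, stood at 11.92, 11.61 and 12.02 in the Flattop-positive arrays, against 9.66 and 10.99 in the Flattop-negative arrays. Here replicate 1 of the Flattop-negative arrays was the lower one, and the difference of 1.52 ± 0.42 (SE, adjusted p = 0.266) was 0.86 without it. The zinc-binding subunit Cox5b had 10.30, 10.09 and 10.26 in the Flattop-positive arrays, against 9.90 and 9.07 in the Flattop-negative arrays, a difference of 0.73 ± 0.29 (SE, adjusted p = 0.361). It rested on Flattop-negative replicate 2, being 0.32 without that array and 1.15 without replicate 1.

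In 2 further subunits a large difference rested on 1 array. Cox4i1, the subunit through which complex IV responds to the ratio of ATP to ADP, had log2 signals of 9.67, 9.41 and 10.18 in the Flattop-positive arrays, against 6.66 and 9.23 in the Flattop-negative arrays. Cox8a, a small membrane-spanning subunit, stood at 10.35, 10.35 and 10.75 in the Flattop-positive arrays, against 7.41 and 10.28 in the Flattop-negative arrays. In both genes replicate 2 of the Flattop-negative arrays lay just under the Flattop-positive arrays and replicate 1 far below. The difference of 1.81 ± 0.76 (SE) for Cox4i1 (adjusted p = 0.373) was 0.53 without replicate 1, and that of 1.64 ± 0.82 (SE) for Cox8a (adjusted p = 0.426) was 0.20. Without replicate 2 they were 3.09 and 3.07. Cox7a2, the broadly expressed isoform of its subunit, showed the reverse, with 9.83, 9.43 and 9.72 in the Flattop-positive arrays, against 9.38 and 8.41 in the Flattop-negative arrays. Its difference of 0.77 ± 0.34 (SE, adjusted p = 0.391) was 0.28 without Flattop-negative replicate 2 and 1.25 without the other. Cox7b behaved alike, at 0.90 ± 0.41 (SE) with both, 0.23 without replicate 2 and 1.57 without replicate 1. The groups of Cox6a1, Cox6c and Cox7a2l, the last a factor of supercomplexes, overlapped. On the other probe set of Cox7a2l they did not, at 10.09, 9.78 and 10.41 in the Flattop-positive arrays, against 9.67 and 9.71. Cox6a1 stood at 11.71, 11.35 and 11.25 in the Flattop-positive arrays, against 12.11 and 10.49 in the Flattop-negative arrays, so replicate 1 was the highest array and replicate 2 the lowest. Its difference was 0.14 ± 0.49 (SE), that of Cox6c 0.28 ± 0.39 (SE) and that of Cox7a2l 0.11 ± 0.37 (SE), and all 3 were below 0 after repeated quantile normalisation and after cyclic loess.

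Among the restricted isoforms, Cox6a2 stood apart by its level. It is the isoform typical of heart and skeletal muscle, and it had log2 signals of 9.48, 8.62 and 9.47 in the Flattop-positive arrays, against 8.96 and 8.57 in the Flattop-negative arrays. It was far above the floor on all 5 arrays, and the groups overlapped, with a difference of 0.43 ± 0.34 (SE, adjusted p = 0.574) that was 0.23 without Flattop-negative replicate 2. The difference was 0.28 without Flattop-positive replicate 1 and 0.71 without Flattop-positive replicate 2. The muscle genes Ckm, for creatine kinase, and Mb, for myoglobin, stood at no more than 6.17 and 5.29 on any array, with Ckm above the floor on all 5. Of 9 muscle genes 0 had a mean signal of at least 7, and the highest single values were 7.85 for Acta1, on Flattop-negative replicate 2, and 6.82 for Actc1, on replicate 1. Cox7a1, a muscle isoform, had 5.50, 5.87 and 5.45 in the Flattop-positive arrays, against 6.19 and 6.15 in the Flattop-negative arrays. It lay lower in the Flattop-positive arrays without overlap, with a difference of -0.56 ± 0.21 (SE), which falls short of 1.5-fold (1.48-fold lower, adjusted p = 0.343). The lung isoform Cox4i2 lay at 4.49, 4.23 and 4.22 in the Flattop-positive arrays, against 4.11 and 4.82 in the Flattop-negative arrays, below the floor on 4 of the 5. Cox8b, a muscle isoform in the mouse, stood at 3.83, 3.88 and 4.14 in the Flattop-positive arrays, against 4.50 and 4.49 in the Flattop-negative arrays, below the floor on all 5. The testis isoform Cox8c had 4.19, 4.26 and 4.33 in the Flattop-positive arrays, against 4.81 and 4.80 in the Flattop-negative arrays, below the floor on 4. Differences of Cox8b and Cox8c were -0.55 ± 0.20 (SE) and -0.54 ± 0.18 (SE), in the direction in which the floor itself differs between the groups. Cox7b2 was below the floor on all 5 arrays, with a difference of -0.49 ± 0.34 (SE) that was -0.017 when Flattop-negative replicate 1 was left out and -0.96 when replicate 2 was. Cox6b2, a testis isoform, stood at 4.46, 4.72 and 4.94 in the Flattop-positive arrays, against 4.90 and 6.47 in the Flattop-negative arrays, with replicate 2 alone standing out. Its difference of -0.98 ± 0.48 (SE) was -0.20 without that array and -1.76 without replicate 1.

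ATP synthase had a median difference of 1.33, above that of complex III except without Flattop-negative replicate 1, where ATP synthase was at 0.89 and complex III at 1.09. The size differed by the role of the subunit. The median was 1.58 for the 5 subunits of the F1 head, where ATP is made, and 1.92 for the 3 genes of the c-ring that turns as protons pass. It was 0.74 for the 4 subunits of the peripheral stalk that holds the head still and 0.31 for the 5 small membrane subunits. Called higher were 4 of 5, 3 of 3, 2 of 4 and 2 of 5 of these. The order of the roles was not the same against each Flattop-negative array. Without Flattop-negative replicate 2 the medians were 2.45 for the head, 3.12 for the ring, 0.31 for the stalk and -0.15 for the membrane subunits. Without replicate 1 they were 0.71, 0.96, 1.32 and 0.89. After cyclic loess 4 members were called and after repeated quantile normalisation 5, beside 3.84% and 4.54% of all genes called higher. Shares among genes of at least 7 were not computed for these scalings. The medians over the 17 were then 0.85 and 0.94, and the membrane subunits' median was -0.16 after cyclic loess.

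**Figure D3:**
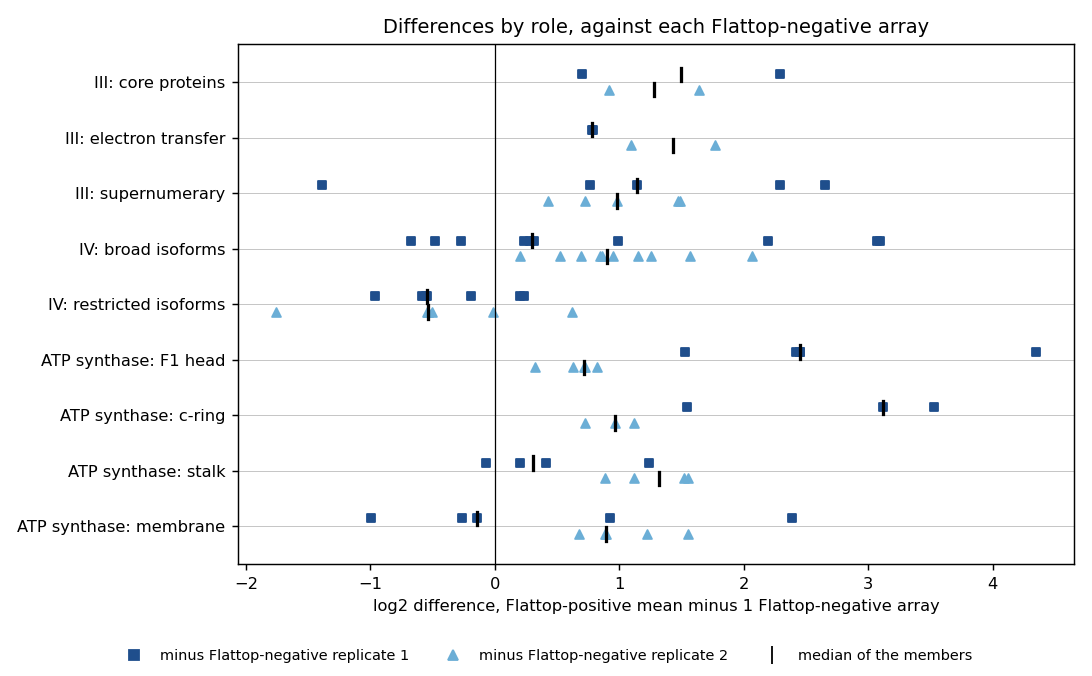
Difference between the Flattop-positive mean and a single Flattop-negative array (horizontal axis, log2) for members grouped by role; squares use Flattop-negative replicate 1, triangles Flattop-negative replicate 2, and black bars are the medians of the members in that row. Squares of the F1 head and the c-ring reach medians of 2.45 and 3.12 where the triangles reach 0.71 and 0.96, whereas in the stalk and membrane rows the median of the triangles lies to the right of that of the squares, although the rightmost point of the membrane row is the square of Atp5j2 at 2.39.

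In the F1 head, Atp5a1 and Atp5b encode the α and β subunits that form the catalytic sites. Atp5a1 had log2 signals of 9.98, 10.02 and 9.96 in the Flattop-positive arrays, against 7.53 and 9.27 in the Flattop-negative arrays. Atp5b had 10.27, 10.01 and 10.66 in the Flattop-positive arrays, against 7.89 and 9.50 in the Flattop-negative arrays. Both genes were without overlap, and in both replicate 1 of the Flattop-negative arrays was the lowest. The difference was 1.58 ± 0.51 (SE) for Atp5a1 (adjusted p = 0.300) and 1.62 ± 0.51 (SE) for Atp5b (adjusted p = 0.293), and these were 0.71 and 0.82 without replicate 1. Without replicate 2 they were 2.45 and 2.42. Atp5c1, the γ shaft that turns within the head, stood at 9.95, 9.91 and 10.28 in the Flattop-positive arrays, against 8.52 and 9.32 in the Flattop-negative arrays, a difference of 1.13 ± 0.30 (SE, adjusted p = 0.258) that was 0.72 without replicate 1. Atp5d, the δ subunit at the foot of the shaft, had the widest spread of any member. Its log2 signals were 9.82, 9.69 and 9.75 in the Flattop-positive arrays, against 5.40 and 9.43 in the Flattop-negative arrays. The difference of 2.34 ± 1.12 (SE) was not called (adjusted p = 0.414) and was 0.33 when Flattop-negative replicate 1 was left out and 4.35 when replicate 2 was. Atp5e, the ε subunit, differed by 1.54 ± 0.53 (SE), by 0.62 without that array and by 2.45 without replicate 2.

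The 3 genes Atp5g1, Atp5g2 and Atp5g3 encode the same mature c subunit with different import sequences. Atp5g1 had log2 signals of 10.88, 10.67 and 10.65 in the Flattop-positive arrays, against 7.62 and 10.01 in the Flattop-negative arrays. Atp5g2 had 10.64, 10.57 and 10.61 in the Flattop-positive arrays, against 7.08 and 9.65 in the Flattop-negative arrays. In these 2 genes the Flattop-negative arrays were more than 2 log2 units apart, and the differences of 1.92 ± 0.68 (SE) and 2.25 ± 0.73 (SE) were 0.72 and 0.96 without replicate 1 and 3.12 and 3.53 without replicate 2. Atp5g3 stood at 10.53, 10.67 and 10.55 in the Flattop-positive arrays, against 9.04 and 9.47 in the Flattop-negative arrays. Its 2 Flattop-negative arrays lay together, more than 1 log2 unit below the Flattop-positive ones, and the difference was 1.33 ± 0.21 (SE) or 2.51-fold (adjusted p = 0.199).

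In the peripheral stalk, Atp5o encodes OSCP, which ties the stalk to the top of the head. It had log2 signals of 9.47, 9.46 and 9.38 in the Flattop-positive arrays, against 8.20 and 7.88 in the Flattop-negative arrays. The Flattop-positive arrays lay within 0.1 log2 units of each other and both Flattop-negative arrays lay more than 1 below, a difference of 1.39 ± 0.20 (SE) or 2.63-fold (adjusted p = 0.198), with the smallest p of the 44 members. Atp5h, subunit d, differed by 0.76 ± 0.30 (SE) and by 0.41 without Flattop-negative replicate 2. Atp5j, subunit F6, differed by 0.54 ± 0.27 (SE), uncalled although its groups did not overlap, and by 0.20 or 0.89 without Flattop-negative replicate 2 or 1. Atp5pb, subunit b, stood at 9.55, 9.39 and 9.51 in the Flattop-positive arrays, against 9.55 and 7.96 in the Flattop-negative arrays, and only replicate 2 was low. Its difference of 0.72 ± 0.47 (SE) was -0.07 without that array. On its other probe set replicate 1 was the low array, at 7.35, with replicate 2 at 8.49. The Flattop-positive arrays there stood at 8.51, 8.50 and 9.01.

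Of the small membrane subunits, Atp5k (subunit e, which helps ATP synthase form dimers) had log2 signals of 10.28, 9.88 and 9.82 in the Flattop-positive arrays, against 9.07 and 8.44 in the Flattop-negative arrays. Both Flattop-negative arrays were lower, with a difference of 1.24 ± 0.28 (SE) or 2.36-fold (adjusted p = 0.228). Atp5j2, subunit f, stood at 11.22, 10.96 and 11.17 in the Flattop-positive arrays, against 8.72 and 10.23 in the Flattop-negative arrays, a difference of 1.64 ± 0.45 (SE) that was 0.89 without replicate 1. Atp5l (subunit g), Atp5md and Atp5mpl differed by 0.26 ± 0.30 (SE), 0.11 ± 0.69 (SE) and 0.31 ± 0.37 (SE), all with overlap. Each of these 3 lay below 0 without Flattop-negative replicate 2 and after cyclic loess.

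The 2 Flattop-negative arrays were thus low in different ways. For the 38 members with a mean signal of at least 7, Flattop-negative replicate 2 lay below the lowest Flattop-positive array in 38, whereas it did so for 61.4% of all genes that bright. Flattop-negative replicate 1 lay below the lowest Flattop-positive array in 28 of 38 (50.7% of all genes that bright) and above the highest in 7, namely Uqcrb, Cycs, Cox6a1, Cox7a2l, Atp5pb, Atp5md and Atp5mpl. These 7 are 18.4%, beside 26.6% of all genes that bright. Atp5pb was nearly a tie, at 9.554 on Flattop-negative replicate 1 against 9.549 on Flattop-positive replicate 1. Of the 7, Cox7a2l and Atp5pb had replicate 1 below the lowest Flattop-positive array on their other probe set. Cox7b, which is not among the 7, had it above the highest on its other probe set. Relative to the Flattop-positive mean, replicate 2 ran from -2.07 to -0.20 over these members with an SD of 0.42, and replicate 1 from -4.35 to 1.39 with an SD of 1.42. Over all genes that bright the SDs were 0.76 for replicate 2 and 1.06 for replicate 1. After repeated quantile normalisation and after cyclic loess, replicate 2 was still below every Flattop-positive array for 33 of the 38 members, 86.8%, beside 42.5% and 34.9% of all genes that bright. Replicate 1 was then below in 23 and above in 13 under both scalings, that is above in 34.2%, beside 37% of all genes that bright after quantile normalisation and 40.8% after loess. The 5 exceptions of replicate 2 under both were Uqcrq, Cox4i1, Cox6a2, Cox8a and Atp5d. These shares carry no test, since each describes a single array.

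**Figure D4:**
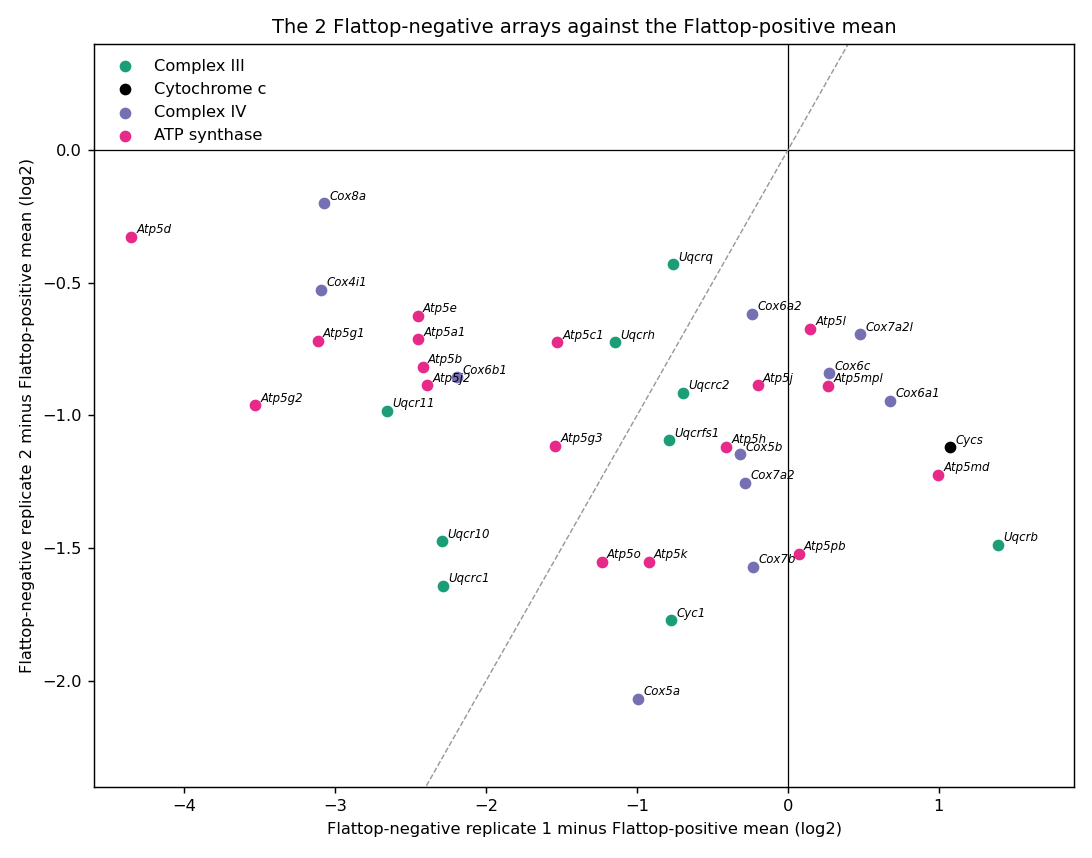
Each of the 38 members with a mean signal of at least 7, placed by the log2 difference of Flattop-negative replicate 1 (horizontal axis) and of Flattop-negative replicate 2 (vertical axis) from the mean of the 3 Flattop-positive arrays; colours give the complex and the dashed line marks equal differences. All points lie below 0 on the vertical axis within -2.07 to -0.20, while they spread from -4.35 to 1.39 along the horizontal axis.

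Of the 22 called members, 9 had a difference that moved by less than 1.5 times whichever Flattop-negative array was left out. These were Uqcrc1, Uqcrc2, Uqcrfs1, Uqcrq, Uqcrh and Uqcr10 of complex III and Atp5g3, Atp5o and Atp5k of ATP synthase, with none from complex IV. Other scalings moved most of them: by over 1.5 times in 5 of the 9 after quantile normalisation and in 7 after cyclic loess, where Uqcrc1 (1.56) and Uqcr10 (1.40) moved less. After loess Uqcrc2 stood at 0.31, Uqcrfs1 at 0.48 and Uqcrq at 0.11, and 5 of the 9 were still called, namely Uqcrc1, Uqcr10, Atp5g3, Atp5o and Atp5k. The difference of 10 called members moved by more than that without replicate 1 and that of 8 without replicate 2. With Flattop-negative replicate 2 left out, and the remaining one taken to vary as the Flattop-positive arrays do, 434 of all genes passed the adjusted threshold, among them the 10 members Atp5a1, Atp5d, Atp5e, Atp5g1, Atp5g2, Atp5g3, Atp5j2, Cox4i1, Cox6b1 and Cox8a. With replicate 1 left out, 0 passed.

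Other respiratory genes lay to the same side in part. Complex I feeds electrons in from NADH. Of the 36 measured genes listed with it by their symbols, 18 were called higher and 1 lower. Over all genes 8.08% were called higher and 3.74% lower. Among genes of at least 7, as 33 of the 36 were, 23% were called higher. The median difference of the 36 was 1.10, and it was 0.51 without Flattop-negative replicate 2 and 0.61 after cyclic loess. The smallest p-values there were those of Ndufs7, an iron-sulphur subunit, at 1.91 ± 0.21 (SE, adjusted p = 0.198) and Ndufs5 at 1.92 ± 0.23 (SE, adjusted p = 0.198). The gene called lower was Ndufa4l2, at -0.63 ± 0.20 (SE, adjusted p = 0.293), which was below the floor on 4 of the 5 arrays, where signals have no order. All 4 subunits of complex II, succinate dehydrogenase, were called higher, with a median of 1.49, among them Sdha at 1.24 ± 0.23 and Sdhc at 1.75 ± 0.36 (SE).

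Assembly factors, which are not part of the finished complexes, were counted by complex. The counts stand beside 8.08% of all genes called higher, and 23% of genes of at least 7. For complex III, 2 of 6 were called higher (median 0.69), namely Uqcc3 at 1.17 ± 0.18 and Uqcc2 at 1.83 ± 0.53 (SE). Uqcc2 differed by 0.94 without Flattop-negative replicate 1. For complex IV, 3 of 17 (background 8.08%) were called higher and 1 (background 3.74%) lower. The median was 0.32, against 0.61 and 0.16 without Flattop-negative replicate 1 and 2, and 0.03 after cyclic loess. Coa3, which helps the first mitochondrially encoded subunit mature, differed by 2.73 ± 0.60 (SE) and by 1.74 without Flattop-negative replicate 1. Cox19, a copper-route protein, differed by 1.01 ± 0.28 (SE), and Cox20, a chaperone of a mitochondrially encoded subunit, by -0.87 ± 0.31 (SE) and by -0.43 without Flattop-negative replicate 1. For ATP synthase, 1 of 4 genes was called higher (median 0.04, and -0.35 after cyclic loess), Atpaf2, which helps build the F1 head, at 1.15 ± 0.18 (SE). Atpif1, the inhibitor that stops the enzyme from running backwards, differed by 0.13 ± 0.36 (SE). Of the 4 carriers of phosphate, ATP and ADP, 2 were called higher (median 0.86, and 0.44 after cyclic loess), the ADP/ATP carriers Slc25a4 at 1.38 ± 0.34 and Slc25a5 at 1.14 ± 0.30 (SE). Without Flattop-negative replicate 1 Slc25a4 differed by 0.87.

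Cell type markers also differed between these arrays. Of 10 β-cell genes, 7 were called higher. Of the 10, 9 had a mean signal of at least 7, and 23% of all genes that bright were called higher. The list's median log2 signal was 10.57, 10.43 and 10.57 in the Flattop-positive arrays, against 9.06 and 9.02 in the Flattop-negative arrays. Of 10 immune cell genes, 8 were highest on Flattop-negative replicate 2, and 2 of the 10 were below the floor on all arrays. The list's median signal was 4.22, 4.11 and 4.48 in the Flattop-positive arrays, against 4.52 and 5.48 in the Flattop-negative arrays. In this list 2 genes were called lower and 1 higher, C1qa, at 1.32 ± 0.45 (SE) and 0.88 without Flattop-negative replicate 1. Of 8 stellate and mesenchymal genes, 7 were highest on Flattop-negative replicate 2, where the list's median was 5.14, against at most 4.64 on the other arrays, and 2 of the 8 were below the floor on all arrays. The floor was also highest on that array, as were 6 of 8 acinar, 6 of 9 muscle, 5 of 6 α-cell and 4 of 6 endothelial genes, and 36.1% of all genes with a mean signal under 7. Of 4 duct genes 1 was highest there, while Krt7 was called higher, at 1.85 ± 0.53 (SE) and 1.04 without Flattop-negative replicate 1. All 4 δ-cell genes were highest on Flattop-negative replicate 2 and lowest on replicate 1, with medians of 6.88, 7.40 and 7.59 in the Flattop-positive arrays, against 6.51 and 8.56 in the Flattop-negative arrays. The part of these marker differences in the members' values was not tested.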

How the data were processed

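RNA from 5 pools of sorted islet cells was measured on 5 arrays. Per the submitters' processing notes, the authors used RMA and the Affymetrix Expression Console (version 1.3.0.187), and the deposited table gives a log2 signal for every probe set. RMA removes background, puts arrays on a common distribution and combines the probes of a set. A genome build was not given in the sources used. Of 35556 probe sets, 21789 carried 1 symbol, 1621 several and 12146 none listed. Only those with 1 symbol were used, and the probe set with the highest mean signal stood for each of 19938 genes.

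The fractions were compared two-sided in limma 3.58.1 under R 4.3.3, with group as the only term and Benjamini-Hochberg adjustment over all genes, and the model was tested on simulated data. All adjusted p-values come from it. The number of arrays limits the precision. The members and lists were chosen with earlier results of these data known. Array values were printed for 22 members listed in the plan and the 3 with the smallest p per complex and direction. Members whose size 1 Flattop-negative array decides are named with the value without it. This was not done throughout for the Flattop-positive arrays. Replicate numbers are shared between groups only as numbers, and no source pairs the pools. The alternatives tried were a replicate block, single arrays left out, 3 other scalings, dim genes left out, the mean of a gene's probe sets, another variance model, array weights and a fold of 2. The background of genes with a mean signal of at least 7, and each Flattop-negative array's position and the called members' sizes under other scalings, were additions made once the values were known. Protein comparisons listed in the plan were not made. Promoter windows are RefSeq's, on GRCm38.p6.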

Additional observations from a re-analysis of the deposited data

How the results depend on the processing

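The number past the adjusted threshold was 0 under every alternative except without Flattop-negative replicate 2 (range 0 to 434 over arrays left out). Genes called at 1.5-fold were 2356, against 1533 after repeated quantile normalisation, 1371 after cyclic loess, 942 at 2-fold, 922 among genes of at least 7, and 1198 to 4722 with 1 array left out. Of the calls, 68.3% were higher in the Flattop-positive arrays; the calls were 1903 higher and 450 lower with arrays centred, 766 and 605 after cyclic loess, and 1396 and 236 with dim genes left out. With the replicate block, 1775 genes were called, and 6, 2 and 10 members of complex III, complex IV and ATP synthase. Deviations of same-numbered arrays from their group mean correlated at r = 0.182 for replicate 1 and -0.137 for replicate 2 over genes. The 2 Flattop-negative arrays deviate by equal and opposite amounts, so these values are not separate checks and cannot decide on pairing. The numbers were not taken as pairs, since no source pairs the pools. The fit with the replicate block gives the same differences as leaving out Flattop-positive replicate 3, which has no partner.

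Complex III calls were 5 after quantile normalisation, 3 after loess and 4 at 2-fold, with medians of 0.61 and 0.48 under the 2 scalings. Complex IV calls ran from 2 to 8 with an array left out; its median was -0.07 after loess, 0.73 with dim genes left out and 0.20 to 0.62 with an array left out. ATP synthase calls were 5 after quantile normalisation, 4 after loess and 5 to 15 with an array left out; its median was 0.94, 0.85 and 0.89 to 1.53 under these.

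Of the 44 members, 33 kept their direction under every alternative that gave them a value and 11 did not. Cox7b2, Cox8b and Cox8c of the 33, and Cox4i2, had no value with dim genes left out. Reversed under the replicate block were Uqcrb (-0.13) and Cycs (-0.28). After quantile normalisation they were Uqcrb (-0.46), Cycs (-0.46), Cox4i2 (0.12), Cox6a1 (-0.13), Cox6c (-0.048), Cox7a2l (-0.38), Atp5md (-0.30) and Atp5mpl (-0.050). After loess they were Uqcrb (-0.45), Cycs (-0.47), Cox4i2 (0.12), Cox6a1 (-0.32), Cox6a2 (-0.068), Cox6c (-0.18), Cox7a2l (-0.38), Atp5l (-0.19), Atp5md (-0.36) and Atp5mpl (-0.16). Cycs was at -0.059 with the mean of its probe sets and with array weights. With 1 array left out the differences spanned -1.39 to 1.49 for Uqcrb, -1.08 to 1.12 for Cycs, -0.50 to 0.20 for Cox4i2, -0.68 to 0.95 for Cox6a1, -0.28 to 0.84 for Cox6c, -0.48 to 0.69 for Cox7a2l, -0.072 to 1.52 for Atp5pb, -0.15 to 0.67 for Atp5l, -0.996 to 1.22 for Atp5md and -0.27 to 0.89 for Atp5mpl. The cause was not tested. Signals at the floor have no order, which limits Cox4i2, Cox7b2, Cox8b, Cox8c and, of the genes listed with complex I by symbol, Ndufa4l2.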

Other observations

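Ndufa4, listed here with complex I by its symbol, is now assigned to complex IV and is no member by the rule. Its log2 signals were 10.03, 10.19 and 8.66 in the Flattop-positive arrays, against 9.25 and 7.53 in the Flattop-negative arrays. The groups overlapped, and the difference was 1.23 ± 0.68 (SE, limma adjusted p = 0.461). Leaving out Flattop-negative replicate 2 made it 0.37, and leaving out replicate 1 made it 2.09.

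Where a member had several probe sets, they mostly lay on the same side. The 2 probe sets of Uqcr11 differed by 1.82 and 2.72, the 3 of Atp5g2 by 2.03 to 2.36 and the 6 of Atp5l by 0.25 to 0.57. The 3 probe sets of Cycs ranged from -0.19 to 0.02 and were the only set to straddle 0 among the 13 members with more than 1. The one at -0.19 had a mean log2 signal of 3.99, under the floor of every array, where signals have no order. Whether the probe sets of a gene are independent measures was not tested. Probe sets of a gene did not always place Flattop-negative replicate 1 alike. In Cox7a2l and Atp5pb it lay above every Flattop-positive array on the probe set used and below every one on the other. In Cox7b it was the reverse. For Atp5pb the probe set used was nearly a tie, at 9.554 on Flattop-negative replicate 1 against 9.549 on Flattop-positive replicate 1.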
